A study of Mus musculus with 12 samples.

Results

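Of 22354 genes tested on the arrays, 6 genes are described here: *Sel1l3*, *Ddit4l*, *Mblac2*, *Metap1d*, *Ptchd1* and *B3gntl1*. They were chosen by the measured values, as genes with a signal well above background whose change with M1 stimulation differed between wild-type and Keap1-deficient macrophages. In each of the 6 the change was less negative, or more positive, in the Keap1-deficient cells. In all, 16 genes (0.0716% of those tested) passed limma's test of that difference at an adjusted p below 0.05, of which 10 (0.0447%) were higher and 6 (0.0268%) lower in the Keap1-deficient cells. Among these 16, 9 genes were well above background on all 8 untreated and M1 arrays. They were the 6 genes, *Vsir*, whose difference ran the other way, and a pair of transcripts without a symbol. The values of the untreated and M1 arrays are therefore given for the 6 genes as a description, without a test.

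Bone marrow-derived macrophages (BMDMs) were grown from bone marrow with M-CSF for 7 days, from C57BL/6 mice aged 8 weeks. The labels of the wild-type (WT) mice name no transgene, and the KpCKO mice were Keap1 flox/flox::LysM-Cre, in which Cre is driven by the lysozyme M locus and removes *Keap1* in myeloid cells. Cells of both genotypes were left untreated (Con), stimulated with LPS and IFNγ for 6 h (M1), or stimulated with IL-4 for 6 h (M2). Each of the 6 groups had 2 arrays, one from each of 2 independent cultures, and each culture held 1 WT and 1 KpCKO mouse. Both mice of culture 1 were male and both of culture 2 were female, so culture and sex cannot be told apart.

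Keap1 holds the transcription factor Nrf2 at a low level by directing it to degradation, and loss of Keap1 lets Nrf2 accumulate and activate genes that carry an antioxidant response element (ARE). LPS acts through NF-κB, and genes that respond to IFNγ often carry GAS elements. *Ddit4l* (also called Redd2) encodes an inhibitor of the growth kinase complex mTORC1. *Metap1d* encodes the mitochondrial methionine aminopeptidase, which removes the first methionine of proteins made in mitochondria. *Mblac2* encodes a hydrolase of the metallo-β-lactamase fold with acyl-CoA thioesterase activity. *Sel1l3* encodes a protein with SEL1 repeats, and *Ptchd1*, an X-linked gene, a membrane protein related to the Hedgehog receptor patched. *B3gntl1* encodes a protein similar to β-1,3-*N*-acetylglucosaminyltransferases.

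The region just before the start of a gene is where such elements are often sought, and RefSeq windows of 250 bases were read for 5 of the 6 genes (*Sel1l3* had no entry). An ARE core (TGACNNNGC or TGAGNNNGC, both strands) was present in 2 of the 5 windows and in 23.0% of 32851 windows of the same length. A GAS motif (TTCNNNGAA, both strands) was present in 0 of 5 and in 7.02% of all windows. An NF-κB motif (GGGNNNTCCC, both strands) was present in 1 of 5 and in 4.77% of all windows. The windows with a match are printed 5′ to 3′ on the strand of the gene, since they hold the letters that these motifs turn on, and the capitals mark the matches.
Ddit4l (GRCm38.p6, chr3:137623422-137623671, plus strand): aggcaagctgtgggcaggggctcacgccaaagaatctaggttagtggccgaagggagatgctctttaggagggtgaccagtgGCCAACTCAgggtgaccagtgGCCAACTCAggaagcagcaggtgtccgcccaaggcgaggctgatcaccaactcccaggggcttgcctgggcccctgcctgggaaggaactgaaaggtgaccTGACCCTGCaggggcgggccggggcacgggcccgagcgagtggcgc
Metap1d (GRCm38.p6, chr2:71453088-71453337, plus strand): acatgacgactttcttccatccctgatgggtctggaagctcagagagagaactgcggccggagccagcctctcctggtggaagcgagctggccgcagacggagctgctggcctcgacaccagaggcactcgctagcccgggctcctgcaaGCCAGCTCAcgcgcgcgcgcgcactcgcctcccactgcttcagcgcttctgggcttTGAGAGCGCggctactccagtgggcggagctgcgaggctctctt
Ptchd1 (GRCm38.p6, chrX:155623328-155623577, minus strand): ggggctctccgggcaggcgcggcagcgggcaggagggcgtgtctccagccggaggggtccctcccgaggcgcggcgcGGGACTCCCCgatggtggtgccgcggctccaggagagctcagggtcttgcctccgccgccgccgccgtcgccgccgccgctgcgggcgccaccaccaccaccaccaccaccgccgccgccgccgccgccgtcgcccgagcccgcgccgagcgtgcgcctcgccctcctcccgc
In *Ddit4l*, 2 of the 3 ARE core matches were the same letters, GCCAACTCA, at 168 and at 147 bases before the start, and the other, TGACCCTGC, began 46 bases before it. In *Metap1d* the matches GCCAGCTCA and TGAGAGCGC began 100 and 44 bases before the start. The match in *Ptchd1*, GGGACTCCCC, began 173 bases before it. These matches are letters in a window and do not show that a factor was bound.

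The genotypes were compared within a slide, since the 4 arrays of each stimulus lay on a slide of their own. Every change from Con to M1 or M2 compares slides, and stimulus and slide cannot be told apart in it. The 75th percentile of the signal, to which every level is set, was lowest in WT M1 (757 and 548 units of intensity), against 787 and 906 in KpCKO M1 and 966 to 1166 in Con and M2. All 6 genes were lowest in WT M1. With quantile normalization in place of this scale, the M1 change in KpCKO less that in WT was 2.96 for *Sel1l3*, 1.57 for *Ddit4l*, 1.51 for *Mblac2*, 1.37 for *Metap1d*, 1.86 for *Ptchd1* and 2.05 for *B3gntl1* (log2). The lowest of their levels was −4.47, in WT M1, while the lowest signals well above background on those arrays were −5.58 and −6.01. *Keap1* was 2.74-fold lower in KpCKO than in WT in Con, 3.28-fold lower in M1 and 3.50-fold lower in M2, and *Nqo1*, a classical Nrf2 target, was 9.38-, 11.3- and 11.5-fold higher. In M2 these differences were −1.81 ± 0.238 (log2, SE, limma adjusted p = 0.0162) and 3.52 ± 0.106 (limma adjusted p = 7.16e-05).

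Of the macrophage markers, 7 of 7 on the array were well above background on all 12 arrays. Their summed level relative to the 75th percentile was 833 to 1041 in WT M1, 560 to 661 in KpCKO M1 and 405 to 639 in Con and M2. These markers did not all move together. The mean log2 level of *Csf1r* went from 7.15 in WT Con to 6.81 in WT M1, and that of *Lyz2* from 7.00 to 6.36. The other macrophage markers rose, with *Cd14* from 6.35 to 7.64 and *Fcgr1* from 5.80 to 7.35. In KpCKO M1 *Csf1r* was at 6.92, while every other marker of this list lay below its WT M1 level. Of the neutrophil markers, 6 of 9 were well above background on all 12 arrays and *Elane* on none, with sums of 9.82 to 13.0 in WT M1, 6.84 to 13.0 in KpCKO M1 and 3.78 to 16.6 over all arrays. Of the B cell markers, *Ms4a1* and *Pax5* were not well above background on any array, and the sum was 0.178 to 0.194 in WT M1 and 0.216 to 0.227 in KpCKO M1, against 0.420 to 0.977 in Con and M2. *Cd3d* of the T and NK cell markers was not well above background on any array, and the sums of the T and NK cell and the erythroid lists stayed at or below 0.530 and 0.109. All 5 stromal markers were well above background on all 12 arrays, with sums of 31.7 to 33.9 in WT M1, 23.2 to 40.5 in KpCKO M1 and 22.1 to 52.9 over all arrays. Within this list *Dcn* was lower in KpCKO than in WT under each stimulus. Its mean log2 level was −1.99 against 0.71 in Con, −1.65 against 1.09 in M1 and −2.66 against 0.07 in M2. The genotypes lay much closer for the other stromal markers. The mast cell list stayed at or below 0.116. Within it *Cpa3*, well above background on 6 of 12 arrays, was higher in KpCKO than in WT. Its mean log2 level was −4.53 against −7.72 in Con, −7.23 against −7.72 in M1 and −4.98 against −7.21 in M2. The genotypes lay closer for *Mcpt4* and *Tpsb2*. The part of the markers of all these lists in the values of the 6 genes was not tested. Fewer cells of a type and less RNA per cell cannot be told apart in such cultures.

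*Sel1l3* had log2 levels, relative to the 75th percentile of the array, of −1.34 and −0.98 in WT Con and of −4.14 and −4.45 in WT M1 (culture 1 and culture 2). In KpCKO the levels were −2.28 and −1.90 in Con and −2.28 and −2.47 in M1. *Sel1l3* was thus highest in WT Con and lowest in WT M1, while the arrays of KpCKO Con and KpCKO M1 were close. In WT M1 its level was 11.4% of that in Con, against 82.1% in KpCKO. The M1 change in KpCKO less that in WT was 2.80 in culture 1 and 2.89 in culture 2 (2.85 ± 0.270 in the fit, log2, SE). Part of this came from Con, where KpCKO lay 0.93 below WT, and part from M1, where it lay 1.92 above. In M2 the levels were −2.21 and −2.10 in WT and −2.76 and −2.76 in KpCKO, so that the order of the genotypes was that of Con.

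*Ddit4l* had levels of −2.38 and −2.22 in WT Con, and of −1.07 and −1.12 in KpCKO Con. In M1 they were −3.14 and −3.32 in WT, and −0.42 and −0.48 in KpCKO. *Ddit4l* was higher in KpCKO than in WT on every array of a stimulus, and it was the only one of the 6 genes whose level in KpCKO M1 lay well above that in KpCKO Con. In WT M1 its level was 52.5% of that in Con, against 156% in KpCKO. The difference between these changes was 1.41 and 1.74 in the cultures (1.57 ± 0.147, log2, SE). In Con the genotypes were already apart by 1.21 and in M1 by 2.78. In M2 the levels were −2.96 and −2.96 in WT and −1.89 and −1.93 in KpCKO. The 6 groups did not overlap, and their order from the lowest was WT M1, WT M2, WT Con, KpCKO M2, KpCKO Con and KpCKO M1.

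*Mblac2* had levels of 1.18 and 1.07 in WT Con, 1.32 and 1.39 in KpCKO Con, −2.37 and −2.67 in WT M1, and −0.68 and −0.83 in KpCKO M1. Less Con, its M1 level was −3.64 in WT and −2.11 in KpCKO (log2), while the KpCKO levels of the other 5 genes in M1 lay within 0.64 of those in Con, between −0.29 and 0.64. The level in M1 was 8.01% of that in Con in WT and 23.1% in KpCKO. The changes differed by 1.55 and 1.51 in the cultures (1.53 ± 0.161, log2, SE). The genotypes lay 0.24 apart in Con and 1.76 in M1. In M2 the levels were 0.43 and 0.29 in WT and 0.63 and 0.64 in KpCKO.

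*Metap1d* had levels of −0.27 and −0.06 in WT Con, and of 0.04 and 0.11 in KpCKO Con. In M1 they were −1.66 and −1.52 in WT and 0.01 and 0.15 in KpCKO. In M2 they were −0.10 and −0.18 in WT and 0.15 and 0.10 in KpCKO. WT M1 thus stood apart from the 10 other arrays, which spanned −0.27 to 0.15. The M1 level was 37.4% of that in Con in WT and 100.5% in KpCKO. The changes differed by 1.36 and 1.49 in the cultures (1.43 ± 0.149, log2, SE), and KpCKO lay above WT by 1.67 in M1 and by 0.24 in Con.

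*Ptchd1* had levels of −0.47 and −0.39 in WT Con, 0.40 and 0.54 in KpCKO Con, −2.61 and −2.27 in WT M1, and 0.15 and 0.64 in KpCKO M1. Its level in M1 was 24.8% of that in Con in WT and 95.2% in KpCKO. The changes differed by 1.89 and 1.98 in the cultures (1.94 ± 0.198, log2, SE). The genotypes were apart by 0.90 in Con and by 2.84 in M1, the widest gap among the 6 genes. In M2 the levels were −1.33 and −0.96 in WT and −0.82 and −0.25 in KpCKO, and the arrays of both genotypes were lower than in Con. The KpCKO M2 arrays overlapped with those of WT Con, and the KpCKO M1 arrays with those of KpCKO Con.

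*B3gntl1* had levels of −2.54 and −2.16 in WT Con, −2.73 and −2.20 in KpCKO Con, −4.47 and −4.37 in WT M1, and −2.69 and −2.52 in KpCKO M1. WT M1 was again apart, while KpCKO M1, both Con groups and both M2 groups overlapped with their neighbours in the order of levels. The M1 level was 23.8% of that in Con in WT and 90.6% in KpCKO. The changes differed by 1.97 and 1.88 in the cultures (1.93 ± 0.192, log2, SE). The genotypes were apart by −0.11 in Con and by 1.81 in M1. In M2 the levels were −2.02 and −1.61 in WT and −2.22 and −1.71 in KpCKO, above Con in both genotypes.

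**Figure D1:**
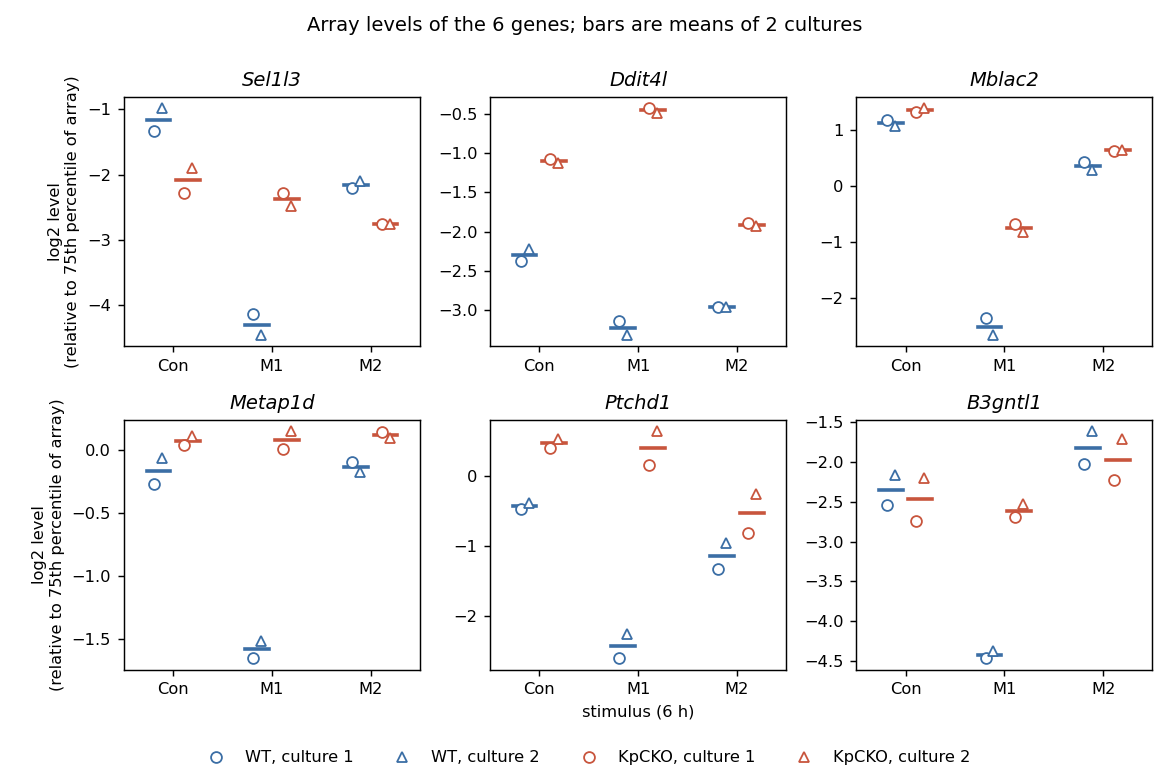
Log2 level of each gene relative to the 75th percentile of the array (vertical axis, with a scale of its own in each panel) against stimulus; blue is WT, red is KpCKO, circles are culture 1, triangles culture 2 and bars the mean of both. In all 6 panels WT M1 is the lowest group, and *Ddit4l* is the gene with its highest level in KpCKO M1, at −0.42 and −0.48.

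Set against all genes, the M1 changes of the 6 genes in WT lay between −3.64 (*Mblac2*) and −0.93 (*Ddit4l*) on the log2 scale, and those in KpCKO between −2.11 and 0.64. In WT, 1.04% of the genes tested had a change as low as *Mblac2* or lower, 1.76% as low as *Sel1l3*, 5.78% as low as *B3gntl1*, 6.18% as low as *Ptchd1*, 11.6% as low as *Metap1d* and 19.2% as low as *Ddit4l*. In KpCKO these shares were 3.48% for *Mblac2*, 35.0% for *Sel1l3*, 41.4% for *B3gntl1*, 44.9% for *Ptchd1*, 48.9% for *Metap1d* and 78.8% for *Ddit4l*. In KpCKO *Mblac2* was the one of the 6 genes near the low end of all genes. The median difference of the M1 change between genotypes over all genes was −0.07.

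**Figure D2:**
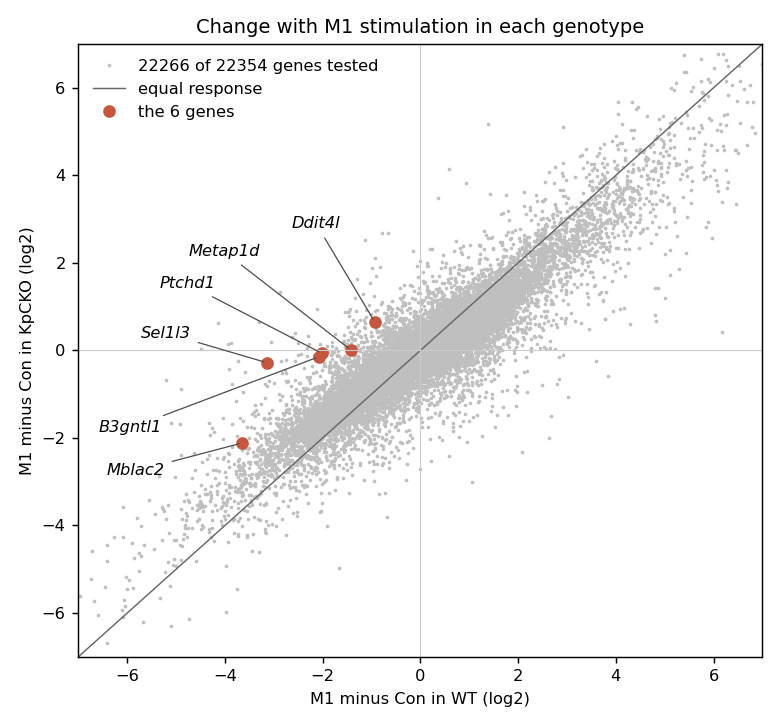
Each dot is a gene, with its log2 change from Con to M1 in WT on the horizontal axis and in KpCKO on the vertical axis; the line marks equal change, red points are the 6 genes, and 88 genes with a change beyond 7 are not shown. The 6 genes, which were chosen for unequal change, lie above the line, with *Sel1l3* at −3.13 in WT and −0.29 in KpCKO and *Ddit4l* at −0.93 and 0.64.

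The values at the edge of the rule were close to each other. Inside it, the adjusted p was 0.0480 for each of the 6 genes, a plateau of the Benjamini-Hochberg adjustment in limma, and 0.0486 for *Vsir*. The next genes outside it, at 0.0504 in limma, were *Abhd15* with a difference of 2.18, *Serpinb1b* with −1.67 and *Slc43a2* with 3.24 (log2).

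The M2 levels were no term of the contrast behind the rule, but the M2 arrays entered the estimate of the spread in its test. With Con and M1 arrays alone, 0 of the 6 genes passed that test. The genotype difference in M2 was the comparison that could be tested, although the cells came from the same mice. Its p-values, in the fit to all arrays and with the M2 arrays alone, are therefore not free of the choice of the genes. *Ddit4l* was 2.08-fold higher in KpCKO than in WT (log2 difference 1.05, 95% interval 0.81 to 1.30, limma adjusted p = 0.00594), by 1.07 in culture 1 and 1.04 in culture 2. It was the only one of the 6 genes called, where 431 of 22365 genes (1.93%) were called in all, and 287 (1.28%) were higher in KpCKO. *Ptchd1* had a difference of 0.61 (0.28 to 0.94, limma adjusted p = 0.103) and *Sel1l3* one of −0.61 (−1.06 to −0.15, limma adjusted p = 0.214), neither past the threshold. The differences of *Mblac2* (0.28, 0.013 to 0.55, limma adjusted p = 0.325), *Metap1d* (0.26, 0.0092 to 0.51, limma adjusted p = 0.332) and *B3gntl1* (−0.15, −0.47 to 0.17, limma adjusted p = 0.704) were smaller. The intervals are not adjusted for the number of genes. The fit shares its estimate of the spread with the arrays of the rule, and when limma was fitted to the 4 M2 arrays alone the adjusted p of *Ddit4l* was 0.191 (unadjusted 0.00201), with 0 genes called of 22365 and 3636 at an unadjusted p below 0.05. The call was also lost with the normexp background correction and when any of the 4 M2 arrays was left out.

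**Figure D3:**
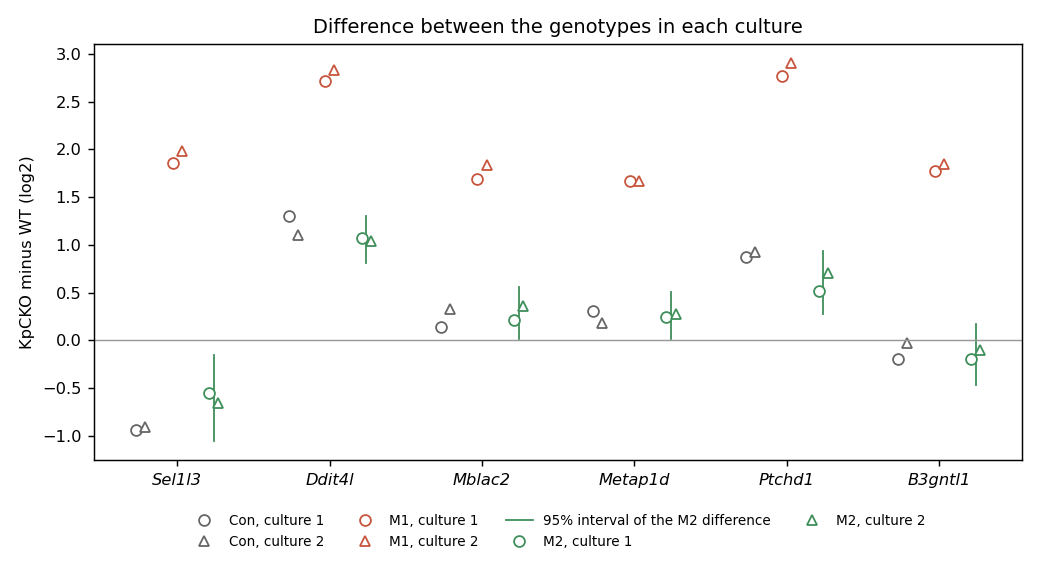
Log2 difference of KpCKO less WT for each gene (horizontal axis) in Con (grey), M1 (red) and M2 (green), with circles for culture 1 and triangles for culture 2; green lines are 95% intervals of the M2 difference. In M1 all 6 genes lie between 1.67 and 2.84 in the fit, whereas in M2 *Ddit4l* is at 1.05 and *Sel1l3* at −0.61.

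The M2 change from Con was set out for each genotype in the same way. *Sel1l3* was at 50.3% of Con in WT M2 and 62.8% in KpCKO M2, *Ddit4l* at 63.2% and 56.9%, *Mblac2* at 58.8% and 60.8%, *Metap1d* at 102% and 103%, *Ptchd1* at 61.1% and 49.9%, and *B3gntl1* at 145% and 141%. The M2 change in KpCKO less that in WT was between −0.29 (*Ptchd1*) and 0.32 (*Sel1l3*) on the log2 scale. These values share the Con arrays with the rule and are a description.

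Other probes of the same gene were available for 3 of the 6 genes, and they measured the same RNA. Both other probes of *Ddit4l* gave differences of 1.69 and 1.65 in the M1 change, beside 1.57 for the probe used, and 1.20 (limma adjusted p = 0.0277) and 1.01 (limma adjusted p = 0.0405) in KpCKO M2 less WT M2. The other probe of *Mblac2* gave 1.35 beside 1.53, and that of *Metap1d* 1.28 beside 1.43. These differences had the sign of the probe used, but with any of these 4 probes in its place the gene did not pass the test of the M1 change (limma adjusted p = 0.0891 and 0.0806 for *Ddit4l*, 0.0623 for *Mblac2* and 0.0679 for *Metap1d*).

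The difference of the M1 change kept its sign for the 6 genes in 23 of 23 other settings. Of these, 11 kept all 12 arrays and 12 left out 1 array. The genes were chosen by this difference and the settings reuse the same arrays, so the kept sign is not separate support. The call behind the rule did not last. With quantile normalization, with the normexp correction, without the filter on dim probes, with the mean of a gene's probes, with mouse as a random block and with Con and M1 arrays alone, 0 of the 6 genes passed, and without the pairing by culture 2 did. All 6 passed with the authors' matrix, with a filter on all 12 arrays, with a floor and with trended and robust variances. Without any one array except replicate 1 of WT M1, 0 of 6 passed, and without that array all 6 did. The normexp correction, run with an offset of 50 intensity units, gave the smallest differences. They were 1.47 for *Sel1l3*, 1.0 for *Ddit4l*, 0.90 for *Mblac2*, 1.04 for *Metap1d*, 1.36 for *Ptchd1* and 0.77 for *B3gntl1*. The correction moved the median of all genes to −0.22. In WT M1 the intensities of the 6 genes, without that offset, ran from 25.0 (*Sel1l3*) to 240 (*Metap1d*). The part of the offset in these differences was not tested.

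**Figure D4:**
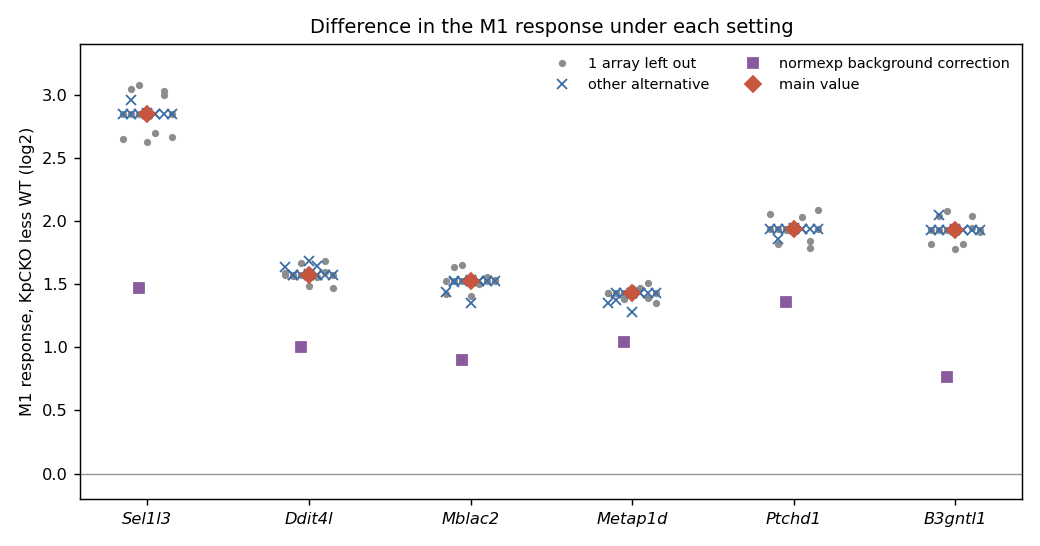
Difference of the M1 change, KpCKO less WT (log2), of each gene under every setting; red diamonds are the values given in the text, grey dots leave out 1 array, crosses are the other alternatives and purple squares the normexp correction. No value is below 0, and the squares lie lowest, at 0.77 for *B3gntl1*. The genes were chosen by this difference on the same arrays, so its sign is not a separate result.

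The genes most like each of the 6 in level over the 12 arrays were named from 12109 genes with a symbol that were well above background on all arrays. For *Ddit4l* these were *Fam13a* (Pearson r = 0.97) and *Prdx6* (0.96), which encodes a peroxiredoxin. *Mblac2* was most like the zinc finger genes *Zfp61* and *Zfp704* (0.99 each), and *Metap1d* most like *Ppm1f* (0.96), a phosphatase, and *Mvk* (0.96), the mevalonate kinase. *Sel1l3* was most like *2300009A05Rik* (0.94) and the lipid transporter gene *Abca5* (0.93), *Ptchd1* most like the kinase gene *Dapk1* (0.95) and *Magee1* (0.92), and *B3gntl1* most like *3110009E18Rik* (0.96) and *Lactb2* (0.95). The 12 arrays share mice, slides and scaling, and r is a description over them.

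Genes related to each of the 6 by family or pathway were compared between the genotypes in M1, where 3578 of 22354 genes (16%) passed limma's test, 1657 (7.41%) higher and 1921 (8.59%) lower in KpCKO, or 2030 and 1352 with quantile normalization. Over the 6 lists, 22 of 112 genes tested (19.6%) passed, 14 higher and 8 lower, a share near that of all genes. Without the pairing by culture 5 passed, with the normexp correction 2 and with the M1 arrays alone 0. Without replicate 2 of WT M1, or without replicate 1 of KpCKO M1, 4 passed, 2 in the *Ptchd1* list and 2 in the *B3gntl1* list. The median difference over all genes was −0.09. None of the lists had a gene past the test of the M1 change. In that limma test 22 of 112 had an unadjusted p below 0.05, against 3662 of 22354 genes in all.

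Beside *Sel1l3*, 4 of 17 genes of the SEL1 and ER-associated degradation list were lower in KpCKO M1 and 0 higher, with a median of −0.13, which was 0.05 with quantile normalization. The 4 calls became 0 with the normexp correction, without the pairing by culture, with the M1 arrays alone, and without either of the M1 arrays just named. Among them were *Derl3* (−1.16 ± 0.205, log2, SE, limma adjusted p = 0.0159), which helps to move misfolded proteins out of the ER, *Hspa5* (−1.01 ± 0.191, adjusted p = 0.0187), the ER chaperone BiP, and *Edem1* (−0.79 ± 0.137, adjusted p = 0.0149), which directs glycoproteins to degradation. *Sel1l3* itself, chosen by a contrast that holds this M1 difference, lay 1.92 higher. Beside *Ddit4l*, 0 of 21 genes of mTORC1 and its regulators passed, with a median of 0.18. While 7632 of 22354 genes had an unadjusted p below 0.05 in limma, 6 of 21 did in this list. The largest difference there was 0.73 for *Sesn2*, an mTORC1 inhibitor (limma adjusted p = 0.321), for which an outlier spot in culture 2 was left out.

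Beside *Mblac2*, 6 of 23 genes of the metallo-β-lactamase fold and acyl thioesterase list were higher in KpCKO M1 and 1 lower, with a median of 0.16. *Acot2*, a mitochondrial acyl-CoA thioesterase, was higher by 0.70 ± 0.175 (log2, SE, limma adjusted p = 0.0402), *Hagh*, the hydroxyacylglutathione hydrolase, by 0.63 ± 0.133 (adjusted p = 0.0258) and its relative *Haghl* by 0.60 ± 0.115 (adjusted p = 0.0197). With the normexp correction 0 of the 23 passed. Beside *Metap1d*, 2 of 18 genes of N-terminal and presequence processing were higher and 0 lower, *Mipep* (0.52 ± 0.101, limma adjusted p = 0.0202), a mitochondrial peptidase, and *Clpp* (0.46 ± 0.125, limma adjusted p = 0.0496), the mitochondrial protease subunit. The median of that list was 0.02.

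Beside *Ptchd1*, 3 of 14 genes of the patched, sterol-sensing and Hedgehog list were higher and 1 lower, against 4 and 0 with quantile normalization, with a median of −0.11. Among them, *Disp1*, which releases Hedgehog proteins, was higher by 0.88 ± 0.127 (log2, SE, limma adjusted p = 0.00851) and *Npc1*, the lysosomal cholesterol exporter, by 0.81 ± 0.159 (adjusted p = 0.0216). Beside *B3gntl1*, 3 of 19 β-1,3-glycosyltransferase genes were higher and 2 lower, against 3 and 1 with quantile normalization, with a median of 0.12. The called genes included *Mfng*, a Notch-modifying fringe enzyme (1.46 ± 0.319, limma adjusted p = 0.0289), *B3galt5* (−2.24 ± 0.152, adjusted p = 0.00073; well above background on 8 of 12 arrays) and *B3galnt1* (−1.06 ± 0.285, adjusted p = 0.0482). In M2, 1 gene of the *Mblac2* list and 1 of the *B3gntl1* list were called, both higher in KpCKO. None of the other 4 lists had a call. With 431 of 22365 genes (1.93%) called in all, these calls are not a result about the lists. In the other 4 lists 4 genes had an unadjusted p below 0.05 in limma, against 3193 of 22365 in all.

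**Figure D5:**
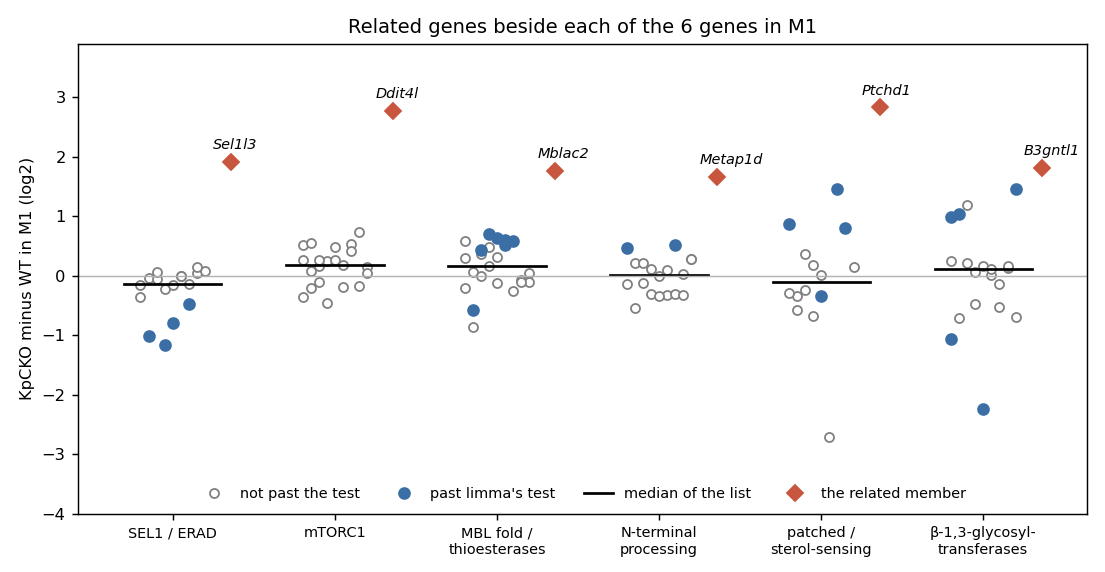
Log2 difference of KpCKO less WT in M1 for the genes of the 6 lists (columns); filled blue points passed limma's test, open points did not, black lines are list medians and red diamonds the gene that each list stands beside. The diamonds lie between 1.67 and 2.84, above the list medians of −0.13 to 0.18. The M1 difference is a term of the contrast that chose these genes, so their place above the medians is not a separate result.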

How the data were processed

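RNA of WT and KpCKO BMDMs was measured on 12 Agilent 1-colour arrays, and the authors deposited the background-subtracted intensity of each spot with flags (Feature Extraction 10.7.3.1) and a matrix of log2 values normalized with GeneSpring. Spots with an outlier flag were dropped, and from every log2 intensity the 75th percentile of that array was subtracted. Of 41174 probes, 26690 had a gene symbol by accession in the RefSeq table, and a gene was read from its brightest probe. Genes were kept when at least 1 group had both arrays well above background (22367 genes). Groups (6) and culture were fitted together with limma 3.58.1 in R 4.3.3 (5 residual degrees of freedom), at a threshold of 0.05 on the p adjusted by Benjamini-Hochberg. With 2 arrays a group, the smallest p of an exact permutation test is 0.333 (two-sided), and none was run. Pairing by culture comes from the description of the series, and deviations from group means correlated within culture at 0.162 to 0.597 in 15 pairs of groups. The number of arrays limits the precision. The code was tested on simulated data. The 6 genes, the lists of related genes and markers, and the settings were chosen with earlier results of these data known. Named genes were the 6 genes, others inside or next outside the threshold, the 2 genes most like each by Pearson r, and up to 3 of each related list past the M1 test (or 1 where none passed), of which 1 is not reported here. Motifs were searched in RefSeq windows (GRCm38.p6). The array design uses another build, so other coordinates are not given. Tables and plots used Python 3.11.15, pandas 2.3.3 and matplotlib 3.10.9.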

Additional observations from a re-analysis of the deposited data

Results flagged for a closer look

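For 9 genes with a clear signal in Con and M1, limma found an M1 change that was unlike in WT and KpCKO, which is also the value that chose the 6 genes. The M1 change in KpCKO less that in WT was 2.85 for *Sel1l3*, 1.57 for *Ddit4l*, 1.53 for *Mblac2*, 1.43 for *Metap1d*, 1.94 for *Ptchd1* and 1.93 for *B3gntl1* on the log2 scale. It was −1.59 for *Vsir*, which encodes an immune checkpoint protein of the B7 family, with a change of −0.23 in WT and −1.82 in KpCKO. The transcripts without a symbol had differences of 2.60 and −1.91. The transcript at −1.91 was dim. Its level was −6.07 in KpCKO M1 of culture 2, where the lowest signal well above background was −6.39. Groups of 2 arrays are too small for a check of single samples that stand apart.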

How the results depend on the processing

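The difference in the M1 change and the genotype difference in M2 kept their sign for the 6 genes in every setting run. For the M1 change this is not separate support, since the genes were chosen by it on the same arrays. The number of genes past the test of the M1 change was 16, and 6 of the 6 genes passed. With quantile normalization it was 2 genes (0 of the 6), with normexp 0 (0 of the 6; 1623 at an unadjusted p below 0.05 in limma), with no filter on dim probes 0 (0; 4323 unadjusted), with the mean of a gene's probes 1 (0), with mouse as a random block 1 (0) and with Con and M1 arrays alone 0 (0; 2895 unadjusted). With the authors' matrix it was 25, with a filter on all 12 arrays 55, with a floor at the lowest signal well above background 55 and with trended and robust variances 108. With no replicate block, that is, without the pairing by culture, 12 genes passed and 2 of the 6. Leaving out 1 array gave 0 to 537 genes and 0 to 6 of the 6; the 537 came without replicate 1 of WT M1. In M2, 431 genes passed, with normexp 224, with no filter 236, with no replicate block 193, with M2 arrays alone 0 (3636 unadjusted) and with 1 array left out 67 to 432; of the 6 genes, 1 passed, but 0 with normexp, with M2 arrays alone and without any of the 4 M2 arrays (0 to 1 over all arrays left out). Student's unpaired t-test is named in the study's methods, although its array genes were called by fold change. That t-test called 1740 genes in M2 unadjusted and 0 adjusted, and 2729 unadjusted and 0 adjusted in M1. In M1, 3578 genes passed, 915 with normexp, 1193 with no replicate block, 0 with M1 arrays alone (5257 unadjusted) and 833 to 3623 with 1 array left out. The adjusted p of *Ddit4l* in M2 ran from 0.00247 to 0.287 in limma. The cause of these shifts was not tested. The precision of dim genes is limited by the array background.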
